A study of Caenorhabditis elegans with 6 samples.

Results

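The lysosomal hydrolases described here were 10 genes of Caenorhabditis elegans, taken by symbol from the 46932 genes of a read count table. They were the glycosidase genes aman-1 and hex-1, the aspartyl protease genes asp-1, asp-3 and asp-4, the cysteine protease genes cpl-1, cpz-1 and cpr-6, the DNase II gene nuc-1 and the acid ceramidase gene asah-1. All 10 matched a single gene in the table and all 10 passed the filter on low counts. RNA had been sequenced from 5000 sorted cells per library, in 3 csr-1a mutant and 3 wild-type (WT) libraries.

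The csr-1a mutant carried gfp::sl2::2xflag::aid::csr-1a_delta at the locus of an Argonaute isoform, a protein that binds small RNAs, while WT carried the intact gfp::sl2::2xflag::aid::csr-1a, so that both groups had a tagged locus. Both also carried him-8, a mutation that raises the share of males, and the extrachromosomal arrays Ex(pnc-1p::wrmScarlet) and Ex(pcs-1p::wrmScarlet), red reporters driven by the pnc-1 and pcs-1 promoters in the cells to be sorted. All animals were young adult males, and the parents of both groups had received a heat stress as late L4 larvae. The labels call the cells "vir & rep", that is rectal valve and rectal gland, and name the libraries biological replicates, with no word on separate cultures. A p-value here thus measures only the spread between these samples, which may be technical. The purity of the sort is not stated in the labels. The design text of the series asks how a csr-1a mutation alters the form of the male tail.

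Lysosomes are acidic compartments in which cells break down material taken up from outside and their own worn components. Their hydrolases are made in the secretory pathway, carried to the lysosome and, for most of the proteases, activated there by cleavage of an inhibitory part. In C. elegans they are prominent in the intestine, in the coelomocytes (scavenger cells of the body cavity) and in the epidermis at the molts.

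Total counts were 17748698 to 47890863 per library, of which ribosomal RNA took 74.4% to 78.4%, leaving 4542195 to 11541671 counts for all other genes. The highest total was that of mutant replicate 1, followed by WT replicate 1 at 26577422. WT replicate 3 and mutant replicate 2 held the fewest genes with a count in their groups, at 14012 and 12757, against 18071 to 19083 in the other libraries. The targeted gene csr-1 stood at 185, 157 and 153 CPM (counts scaled to a common library total) in the mutant libraries, against 185, 209 and 266 CPM in the WT libraries, and did not pass the test (log2 fold change -0.42 ± 0.17, adjusted p = 0.213). Counts were made per gene and do not separate its isoforms, so this value is no check of the genotype. The labelled cell type was checked against 8 rectal genes. Of these, 5 were tested and 2 rose, the reporter genes pnc-1 and pcs-1, which averaged 22.9 and 30.3 CPM in the mutant and 7.17 and 13.3 CPM in WT (adjusted p = 0.00616 and 0.0258), while the Hox gene egl-5 and the transcription factor genes egl-38, mab-9, lin-48, ceh-6 and sox-2 averaged at most 5.49 CPM in either group. The call of pcs-1 ended without mutant replicate 1, WT replicate 1 or WT replicate 2 (adjusted p = 0.0691, 0.0965 and 0.0759). For pnc-1 it ended without both libraries of fewest genes (adjusted p = 0.0738). A count of 0 was seen for mab-9 in all 3 mutant libraries and in WT replicate 3. The 5 coelomocyte markers summed to 1689 to 2412 CPM in the mutant and 3682 to 4283 CPM in WT. The 12 body wall muscle markers summed to 7804 to 18420 CPM in the mutant and 606 to 797 CPM in WT.

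For CPM, trimmed mean of M values (TMM) scaling was used, with ribosomal RNA kept in the totals. Each log2 fold change is given for mutant over WT with its standard error. The adjusted p-values are those of the quasi-likelihood test in edgeR after Benjamini-Hochberg correction over all 11968 genes tested, and the threshold was 0.05.

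The cysteine proteases CPL-1 and CPZ-1 were the hydrolases whose RNA rose in the csr-1a mutant, by 4.70-fold and 4.51-fold. The transcripts of the glycosidases aman-1 and hex-1, the most abundant of the 10, lay lower in every mutant library than in any WT library but did not pass the test. The remaining 6 genes, asp-1, asp-3, asp-4, cpr-6, nuc-1 and asah-1, overlapped between the groups. In all, 2 of the 10 genes were higher and 0 lower past the threshold with edgeR. Among all genes tested, 4.04% were called higher and 1.55% lower, or 5.59% in either direction. At an unadjusted p under 0.05 there were 3 of the 10 genes higher and 2 lower, beside 9.39% and 7.47% of all genes. DESeq2 and limma-voom each called 2 of the 10 higher and 2 lower, beside 5.86% and 3.02% of all genes with DESeq2 and 2.93% and 1.85% with limma-voom. The median log2 fold change of the 10 genes was -0.09, beside 0.01 over all genes tested.

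**Figure D1:**
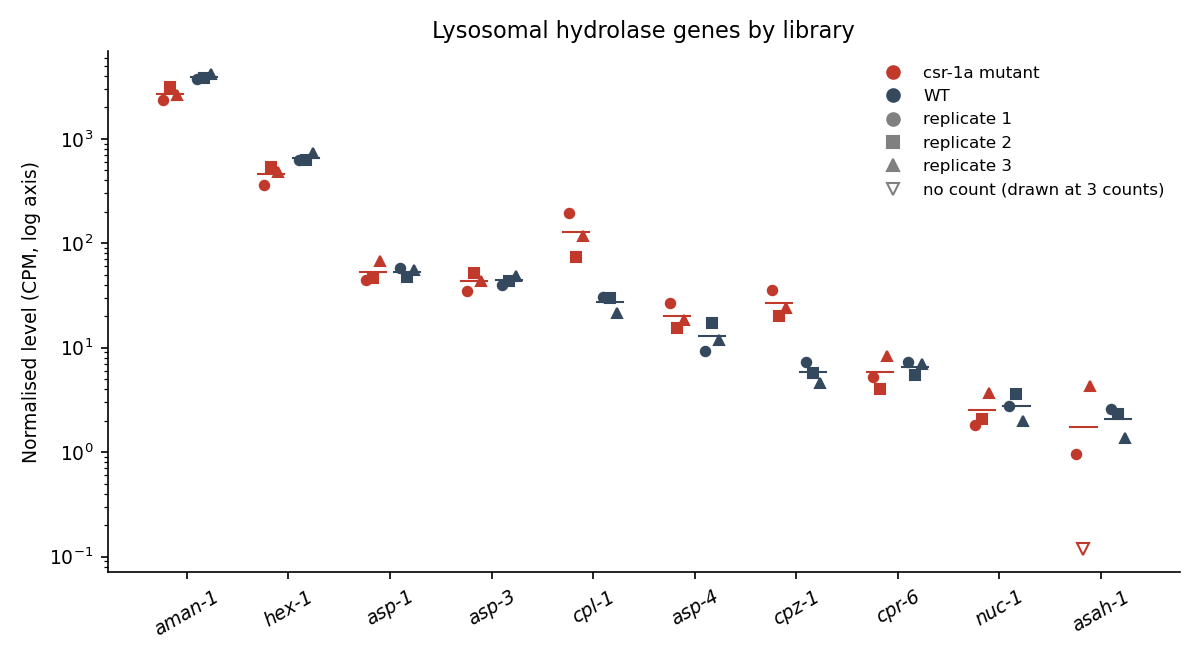
Level of each hydrolase gene (CPM, log axis) in the 3 csr-1a mutant libraries (red, left) and the 3 WT libraries (blue, right), with horizontal lines at the group means and genes ordered by WT level per kilobase. The red points of cpl-1 and cpz-1 lie above all WT points, those of aman-1 and hex-1 lie below them, and the open triangle marks the mutant library without a count for asah-1, drawn at the level that 3 counts would give.

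The genes differed widely in level. Levels between genes are compared as CPM per kilobase of annotated exon, the union of the exons of each gene in the WBcel235 annotation. On this scale aman-1 averaged 910.4 ± 131 CPM per kilobase in the mutant and 1310 ± 70.6 in WT (SD, n = 3 each), which placed it at rank 4 of 19980 protein-coding genes in both groups. The level of hex-1 was 243.5 ± 49.1 CPM per kilobase in the mutant and 349.9 ± 30.5 in WT, at ranks 60 and 27. Far below them in WT followed asp-1 (44.9), asp-3 (30.2), cpl-1 (23.0), asp-4 (8.78), cpz-1 (5.91), cpr-6 (5.23), nuc-1 (2.22) and asah-1 (1.66). Neighbours in that WT order whose libraries overlapped were asp-4 and cpz-1, cpz-1 and cpr-6, and nuc-1 and asah-1, and the other neighbours did not overlap.

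In the mutant the order differed in the place of the cysteine proteases. There cpl-1 stood next after the glycosidases, at 108 ± 51.7 CPM per kilobase, above asp-1 (44.3) and asp-3 (29.6), and cpz-1 came next at 26.7 ± 8.01, above asp-4 (13.8), cpr-6 (4.64), nuc-1 (2.01) and asah-1 (1.39). The lowest mutant library of cpl-1, at 62.3 CPM per kilobase, lay above the highest of asp-1, at 56.5. The libraries of asp-3 and cpz-1 overlapped in the mutant, as did those of nuc-1 and asah-1, while the other neighbours in the order did not. By rank among the 19980 protein-coding genes, cpl-1 stood at 165 in the mutant and at 689 in WT, and cpz-1 at 582 and at 2984.

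Of all counts that were not ribosomal RNA, the 10 genes together made up 1.52% ± 0.239 in the mutant and 1.87% ± 0.0719 in WT (SD, n = 3 each). Most of this was aman-1, which made up 77.0% to 80.5% of the summed CPM of the 10 genes in the mutant libraries and 82.5% to 82.9% in the WT libraries. Without aman-1 and hex-1, the other 8 genes summed to 345, 214 and 285 CPM in the mutant and to 158, 155 and 152 CPM in WT, and the groups did not overlap. Those 8 genes were set apart after their values were seen, and cpl-1 and cpz-1 together gave 231, 94.4 and 140 CPM of it in the mutant and 38.1, 35.46 and 26.02 CPM in WT. The other 6 genes summed to 114.7, 119.1 and 145.1 CPM in the mutant and to 119.6, 119.9 and 126.2 CPM in WT, and there the groups overlapped.

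The glycosidases come first by level. AMAN-1 is an acid alpha-mannosidase, an enzyme that removes mannose from the sugar chains of glycoproteins brought to the lysosome. Its gene (WBGene00018877) lies on chromosome X of WBcel235, from 4733095 to 4738592 on the plus strand, with 21 exons. It was counted at 2359, 3127 and 2631 CPM in mutant replicates 1, 2 and 3, against 3752, 3795 and 4135 CPM in WT replicates 1, 2 and 3. All mutant libraries lay below all WT libraries, with mutant replicate 1 the lowest, and the WT libraries were close together. The log2 fold change was -0.53 ± 0.14 with a 95% interval of -0.84 to -0.21, a ratio of 0.695, and did not pass the test (adjusted p = 0.0624, edgeR). The gene stood at rank 7 in the mutant and rank 6 in WT among all genes outside ribosomal RNA by CPM.

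HEX-1, a beta-hexosaminidase, cuts terminal N-acetylhexosamines from glycans. Its gene (WBGene00020509, chromosome X, 2221150 to 2226620, plus strand, 11 exon blocks, 2 transcripts) had 359.9, 543 and 479 CPM in the mutant libraries, against 627, 630.2 and 728 CPM in the WT libraries. As with aman-1, mutant replicate 1 was lowest, mutant replicate 2 was the nearest to WT, and the groups did not overlap. On the log2 scale the difference was -0.52 ± 0.17 with a 95% interval of -0.89 to -0.15, a ratio of 0.696 (adjusted p = 0.111). Among all genes tested, the groups did not overlap in 12.2% with the mutant lower and in 12.6% with the mutant higher, or 24.8% in all. Of the 10 hydrolases, 2 were without overlap in each direction.

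Both glycosidase genes were called lower in some alternatives and not in others. With DESeq2 the adjusted p was 0.014 for aman-1 and 0.0493 for hex-1, and with limma-voom 0.0109 and 0.0476. With the replicate number as a block they were 0.141 and 0.143, and with scaling by library totals alone 0.268 and 0.341. Leaving out mutant replicate 1 or mutant replicate 2 brought aman-1 past the threshold (adjusted p = 0.0281 and 0.0408), and no single library left out did so for hex-1. The log2 fold change stayed negative in all 17 alternatives that could be run on them, from -0.59 to -0.42 for aman-1 and from -0.60 to -0.36 for hex-1.

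The coelomocyte markers moved in the same direction as the glycosidases. The marker list was written with earlier results of these data known. All 5 markers fell past the threshold, beside 1.55% of all genes tested, and none was at 0 in any library. They were cubn-1 (cubilin, an endocytic receptor), cup-4 and lgc-26 (ligand-gated ion channel subunits), unc-122 (a collagen-like membrane protein) and ceh-34 (a homeodomain factor), with log2 fold changes of -0.94 ± 0.17, -0.81 ± 0.16, -0.88 ± 0.16, -0.83 ± 0.16 and -0.70 ± 0.15 and adjusted p of 0.00806, 0.0117, 0.00616, 0.0113 and 0.02. None of the 5 passed when both libraries with the fewest genes were left out (adjusted p = 0.0618, 0.0635, 0.06, 0.0502 and 0.117), although the fit to the other 4 libraries gave log2 fold changes of -0.95, -0.84, -0.84, -0.84 and -0.63. The calls of cup-4, unc-122 and ceh-34 also ended without WT replicate 1 (adjusted p = 0.0704, 0.0674 and 0.194) and without WT replicate 3 (0.0552, 0.0547 and 0.0704), and that of ceh-34 without mutant replicate 2 or 3 (0.0595 and 0.0767) and with scaling by library totals alone (0.0613). Their summed level had a mutant to WT ratio of 0.542, and their part in the lower level of aman-1 and hex-1 was not tested. In bulk RNA, fewer cells of a type and less RNA per cell cannot be told apart.

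Relative to the summed coelomocyte markers in the same library, aman-1 stood at 1.40, 1.30 and 1.13 in the mutant libraries and at 0.962, 1.03 and 0.965 in the WT libraries. The same ratio for hex-1 was 0.213, 0.225 and 0.206 in the mutant and 0.161, 0.171 and 0.17 in WT. Both ratios were higher in every mutant library than in any WT library, so that the 2 glycosidase transcripts were lower by a smaller factor than these markers. The ratios were formed after the values were seen and carry no test.

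**Figure D2:**
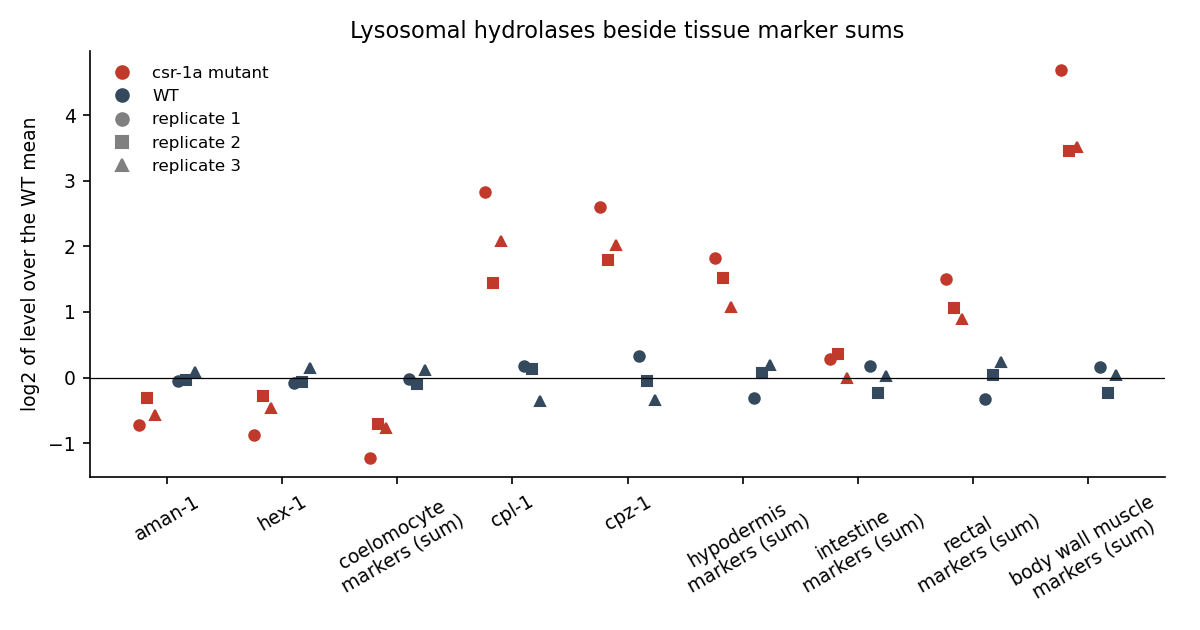
Level of 4 hydrolase genes and of summed tissue markers in each library, as the log2 of its ratio to the WT mean, with csr-1a mutant libraries in red on the left and WT libraries in blue on the right of each pair. The mutant points of aman-1, hex-1 and the coelomocyte sum lie below 0, those of cpl-1, cpz-1, the hypodermal, rectal and muscle sums lie above the WT points, and the intestinal sums overlap.

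Of the cysteine proteases, CPL-1 is the cathepsin L of the worm, required for embryonic development and for the processing of yolk in eggs, and active at the molts. Its gene (WBGene00000776) lies on chromosome V, from 16592572 to 16595346 on the minus strand, in 4 exon blocks with 2 transcripts. It had 195, 74.1 and 116 CPM in mutant replicates 1, 2 and 3, against 30.8, 29.8 and 21.4 CPM in WT replicates 1, 2 and 3. All mutant libraries lay above all WT libraries, and mutant replicate 1 was the highest and the farthest from the others. Mutant over WT, the log2 fold change was 2.23 ± 0.31 with a 95% interval of 1.55 to 2.91, a 4.70-fold difference (adjusted p = 0.00143, edgeR). The raw counts behind it were 9300, 1874 and 2621 in the mutant and 748, 584 and 363 in WT.

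CPZ-1 is a cathepsin Z-type carboxypeptidase, known in C. elegans from the epidermis and cuticle at molting. The gene cpz-1 (WBGene00000788, chromosome I, 2686640 to 2689429, minus strand, 5 exon blocks, 2 transcripts) had 35.5, 20.2 and 23.8 CPM in the mutant libraries, against 7.32, 5.66 and 4.60 CPM in the WT libraries. As for cpl-1, replicate 1 was the highest mutant library and replicate 2 the lowest, and the groups did not overlap. This gave a log2 fold change of 2.17 ± 0.28 with a 95% interval of 1.56 to 2.79, a 4.51-fold difference (adjusted p = 9.06e-04). The calls of cpl-1 and cpz-1 held in all 18 alternatives run, with log2 fold changes of 1.81 to 2.57 for cpl-1 and 1.91 to 2.41 for cpz-1. The snRNA gene F32B5.9, on the opposite strand, overlaps the span of cpz-1 but shares 0 bp of exon with it. Its counts over the 6 libraries came to 117% of those of cpz-1, at 21.4, 19.5 and 24.5 CPM in the mutant libraries and 27.4, 20.7 and 29.9 CPM in the WT libraries, and it differed by -0.25 ± 0.20 on the log2 scale (adjusted p = 0.633). The highest adjusted p was 0.0148 for cpl-1 and 0.00883 for cpz-1, and without both libraries of fewest genes the 2 genes were still the only hydrolases called.

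The third cysteine protease gene, cpr-6, encodes a cathepsin B-type enzyme. It (WBGene00000786, chromosome X, 6607207 to 6609045, plus strand) had 5.23, 4.03 and 8.28 CPM in the mutant libraries, against 7.36, 5.51 and 6.90 CPM in the WT libraries. Its mutant libraries spread on both sides of the WT range. The difference was -0.18 ± 0.34 on the log2 scale, with a 95% interval of -0.92 to 0.56 (adjusted p = 0.881), an interval whose upper end is a ratio of 1.48, below those of cpl-1 and cpz-1.

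Muscle markers were higher in the same mutant libraries, as were the summed hypodermal and rectal markers, each through few genes. These lists too were written with earlier results of these data known, and 4.04% of all genes tested were called higher. Of the 12 body wall muscle markers 11 were tested and all 11 rose, led in level by the myosin heavy chain gene unc-54 at 4058 ± 2117 CPM in the mutant and 248.6 ± 28.8 CPM in WT (SD, n = 3 each), which is 4.03 ± 0.32 on the log2 scale (adjusted p = 9.35e-05), and unc-60 was listed at 0 in all libraries. Of 7 hypodermal markers, 3 were tested and 1 rose, the cuticle collagen gene rol-6, at 63.1 ± 17.9 CPM in the mutant and 16.8 ± 5.46 CPM in WT (log2 fold change 1.91 ± 0.28, adjusted p = 0.00206). The adult cuticle collagen gene col-19 went the other way, at 3.16 CPM in the mutant and 5.08 CPM in WT (log2 fold change -0.69, adjusted p = 0.421). The hypodermal sum was 51.7 to 87.3 CPM in the mutant and 19.8 to 28.1 CPM in WT, most of it rol-6, with dpy-10 at 0 in all libraries and dpy-7 at 0 in all WT libraries. The rectal sum was 51.4 to 79.0 CPM in the mutant and 22.1 to 32.7 CPM in WT, where pnc-1 and pcs-1, the genes of the sorting promoters, were the 2 called. The part of these tissues in the rise of cpl-1 and cpz-1 was not tested.

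Within the mutant, replicate 1 had the highest muscle, hypodermal and rectal sums, the highest cpl-1 and cpz-1 and the lowest aman-1, hex-1 and coelomocyte sum. Between replicates 2 and 3 the order was mixed. The hypodermal and rectal sums were higher in replicate 2 (70.3 and 57.9 CPM) than in replicate 3 (51.7 and 51.4 CPM). The muscle sum, cpl-1 and cpz-1 were higher in replicate 3 (8210, 116 and 23.8 CPM) than in replicate 2 (7804, 74.1 and 20.2 CPM). Without mutant replicate 1, cpl-1 and cpz-1 had log2 fold changes of 1.81 and 1.91 and were called (adjusted p = 9.5e-04 and 0.00243). Per unit of the summed muscle markers, cpl-1 was lower in every mutant library (0.0106, 0.0095 and 0.0141) than in any WT library (0.0386, 0.0491 and 0.0292). This restates that the muscle sum had a larger mutant to WT ratio, 16.1, than the 4.70-fold difference of cpl-1. Per unit of the hypodermal markers, cpl-1 stood at 2.24, 1.05 and 2.25 in the mutant and at 1.55, 1.15 and 0.762 in WT, and the groups overlapped. The muscle and hypodermal ratios were formed after the values were seen and carry no test. With the muscle markers left out of the table, the log2 fold change of cpl-1 was 2.28 (adjusted p = 0.00223) and that of cpz-1 was 2.22 (adjusted p = 0.00141). That setting dropped only the rows of the listed markers. Any reads of cpl-1 and cpz-1 from muscle would have stayed in the counts, so it cannot tell their tissue of origin.

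**Figure D3:**
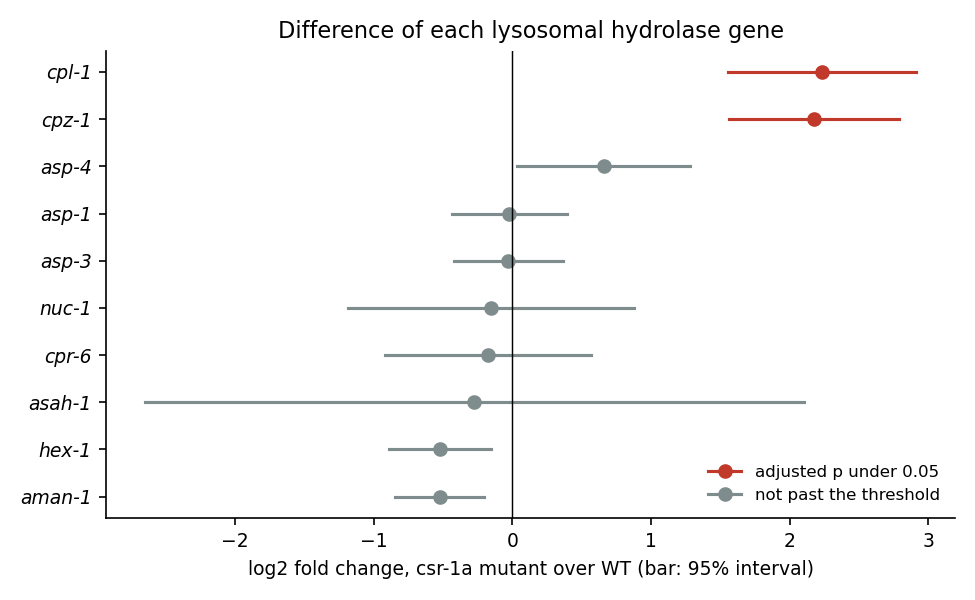
Log2 fold change of each hydrolase gene, csr-1a mutant over WT, with its 95% interval; red marks an adjusted p under 0.05 and grey the rest. The intervals of cpl-1 and cpz-1 lie wholly above 1.5, those of aman-1 and hex-1 lie below 0 and that of asp-4 just above 0 without passing the adjusted threshold, and that of asah-1 is the widest.

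Of the aspartyl proteases, asp-1 and asp-3 differed by values near 0 and asp-4 was higher in the mutant mean, with no call for any. ASP-1 is an aspartyl protease known from the intestine. The gene asp-1 (WBGene00000214, chromosome V, 19049562 to 19050752, minus strand, a single exon) had 44.8, 46.0 and 67.3 CPM in the mutant libraries, against 58.2, 47.3 and 54.9 CPM in the WT libraries. The groups overlapped, with mutant replicate 3 above all other libraries. The mutant differed from WT by -0.02 ± 0.19 on the log2 scale, with a 95% interval of -0.44 to 0.40 (adjusted p = 0.98).

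ASP-3 and ASP-4 are cathepsin D-type proteases that are required for necrotic death of neurons in C. elegans. The gene asp-3 (WBGene00000216, chromosome X, 6791064 to 6792709, plus strand) had 35.2, 51.4 and 43.3 CPM in the mutant libraries, against 39.5, 43.9 and 49.0 CPM in the WT libraries. The mutant libraries lay on both sides of WT, and the log2 fold change was -0.03 ± 0.18 with a 95% interval of -0.42 to 0.37 (adjusted p = 0.973). The precision for asp-1 and asp-3 was the best among the 6 genes that overlapped between groups, with ratios from 0.738 to 1.32 and from 0.745 to 1.29 inside their intervals.

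The gene asp-4 (WBGene00000217, chromosome X, 13218985 to 13221462, minus strand) had 26.7, 15.6 and 18.3 CPM in the mutant libraries, against 9.26, 17.3 and 11.9 CPM in the WT libraries. The groups overlapped because WT replicate 2 lay above mutant replicate 2. Its difference of 0.66 ± 0.28 (log2), a ratio of 1.58, had a 95% interval of 0.03 to 1.28 that lay above 0, was larger in size than those of aman-1 and hex-1, and missed the threshold after adjustment (adjusted p = 0.264). It was positive in all 18 alternatives, from 0.41 to 0.93, with no call in any. The exons of asp-4 share 33 bp with R12H7.4 on the opposite strand, whose counts over the 6 libraries came to 3.66% of those of asp-4.

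The intestinal markers, which include genes of the tissue where asp-1 is known, gave 0 calls with edgeR among 6 tested of 8, at an adjusted p of 0.0529 or more. At an unadjusted p under 0.05 stood 1 higher and 1 lower, beside 9.39% and 7.47% of all genes tested. DESeq2 called 1 higher and 1 lower, beside 5.86% and 3.02% of all genes, and limma-voom called 0. Their sums overlapped between groups, at 42.6 to 54.5 CPM in the mutant and 36.3 to 48.1 CPM in WT. The highest was ifc-2, an intermediate filament gene, at 21.4 to 32.1 CPM in the mutant and 14.1 to 16.8 CPM in WT. Another such gene, ifb-2, went the other way, at 4.79 to 6.25 CPM in the mutant and 7.55 to 13.7 CPM in WT. Its log2 fold change was -0.95 (edgeR adjusted p = 0.1), and it was named after its value was seen. The gene elt-2, the main transcription factor of the intestine, averaged 0.812 CPM in the mutant and 0.564 CPM in WT.

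The 2 remaining enzymes were at the lowest levels. NUC-1, a DNase II, breaks down the DNA of engulfed dead cells and of food in the gut. The gene nuc-1 (WBGene00003828, chromosome X, 9539905 to 9542329, plus strand) had 86, 52 and 83 counts in the mutant libraries and 67, 70 and 34 counts in the WT libraries. These were 1.80, 2.06 and 3.68 CPM in the mutant and 2.76, 3.57 and 2.01 CPM in WT, and the WT range lay inside the mutant range. The log2 fold change was -0.15 ± 0.47 with a 95% interval of -1.18 to 0.88 (adjusted p = 0.933), and ratios from 0.44 to 1.84 lay inside it. Counting error alone came to 0.15 on this scale, below the standard error of 0.47.

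ASAH-1, an acid ceramidase, splits ceramide into sphingosine and a fatty acid. The gene asah-1 (WBGene00010769, chromosome I, 12505114 to 12507569, plus strand) had 46, 0 and 96 counts in the mutant libraries and 63, 45 and 23 counts in the WT libraries. The counts correspond to 0.965, 0 and 4.25 CPM in the mutant and 2.59, 2.30 and 1.36 CPM in WT, and the mutant held both the highest and the lowest library. The count of 0 in mutant replicate 2 allows up to 0.119 CPM, and that library is one of the 2 with the fewest genes detected. For asah-1 the log2 fold change of -0.28 ± 1.08 had a 95% interval of -2.65 to 2.10 (adjusted p = 0.953). Without mutant replicate 2 it was 0.33, and without mutant replicate 3 it was -1.98, in neither case called.

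Other lysosomal genes were read from 7 lists with 79 genes found in the table, of which 65 were tested. Of these 65 genes 1 rose and 3 fell (1.54% and 4.62%, beside 4.04% and 1.55% of all genes tested), and their log2 fold changes had a median of -0.07. None of the 13 tested of 17 other cathepsin-type proteases was called by edgeR, DESeq2 or limma-voom. At an unadjusted p under 0.05, 0 of these proteases were higher and 1 lower, beside 9.39% and 7.47% of all genes tested. Their median log2 fold change was -0.02, and asp-6, the most abundant of them, stood at 46.1 ± 11.7 CPM in the mutant and 41.4 ± 5.76 CPM in WT. Among these sister proteases cpz-2, the other cathepsin Z gene of the worm, differed by 0.19 on the log2 scale (adjusted p = 0.868), a gene named after its value was seen.

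None of 11 tested glycosidases and sulfatases other than aman-1 and hex-1 was called by edgeR, DESeq2 or limma-voom. Of these enzymes 1 was higher and 0 lower at an unadjusted p under 0.05. Their log2 fold changes had a median of 0.12. The beta-galactosidase gene bgal-1 was the most abundant of them, at 10.4 ± 3.35 CPM in the mutant and 9.78 ± 2.61 CPM in WT. None of 2 tested acid nucleases was called by these tools or was below 0.05 in the unadjusted p, and the RNase T2 gene rnst-2 had 7.82 ± 1.45 CPM in the mutant and 10.8 ± 3.50 CPM in WT. Both cystatins, which are protein inhibitors of cysteine proteases, were tested without a call by these tools and with 0 at an unadjusted p under 0.05, and the more abundant, cpi-2, had 94.96 ± 25.2 CPM in the mutant and 128 ± 24.2 CPM in WT (log2 fold change -0.43 ± 0.21, adjusted p = 0.351).

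Of the lipid-degrading enzymes 8 of 14 were tested, with 3 higher and 0 lower at an unadjusted p under 0.05. Past the adjusted threshold 1 rose, lipl-7, a gene of the lysosomal acid lipase family. It had 3.74, 3.12 and 3.37 CPM in the mutant libraries, against 0.617, 0.408 and 0.236 CPM in the WT libraries. All mutant libraries lay above all WT libraries, and the log2 fold change was 2.98 ± 0.57 (adjusted p = 0.01). The WT levels were near the count floor, and the gene passed the low-count filter through the mutant libraries, where it was high. Its call and fold change thus rest on few WT counts. This call ended with limma-voom (adjusted p = 0.108) and without mutant replicate 1 (adjusted p = 0.0528).

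Of 15 tested lysosomal membrane proteins and transporters 5 were lower and 0 higher at an unadjusted p under 0.05. Of all genes tested, 7.47% were lower and 9.39% higher at that p. The median log2 fold change of the 15 genes was -0.41, and past the adjusted threshold 2 of them fell and 0 rose. They were scav-3, a relative of the mammalian membrane protein LIMP-2 that keeps lysosomes intact, and ctns-1, the worm cystinosin, which exports cystine. The level of scav-3 was 19.9 ± 0.449 CPM in the mutant and 35.2 ± 4.64 CPM in WT (log2 fold change -0.82 ± 0.17, adjusted p = 0.0167), and that of ctns-1 was 60.1 ± 15.1 CPM in the mutant and 104.5 ± 8.13 CPM in WT (log2 fold change -0.80 ± 0.19, adjusted p = 0.0338). Of 14 tested sorting and biogenesis genes 1 fell and 0 rose, vps-16, a subunit of the tethering complexes that fuse vesicles with lysosomes, at 12.8 ± 0.584 CPM in the mutant and 24.2 ± 4.81 CPM in WT (log2 fold change -0.92 ± 0.21, adjusted p = 0.0231). At an unadjusted p under 0.05, 3 of these 14 genes were lower and 0 higher. The call of scav-3 ended without any 1 library other than mutant replicate 1 (adjusted p = 0.0521 to 0.0693). That of ctns-1 ended without mutant replicate 3 or any 1 WT library (adjusted p = 0.053 to 0.135) and with scaling by library totals alone (0.103), and that of vps-16 without any 1 library other than WT replicate 2 (adjusted p = 0.0536 to 0.0944). All 3 calls ended when both libraries with the fewest genes were left out (adjusted p = 0.114, 0.0631 and 0.12). The coelomocyte markers, with a mutant to WT ratio of 0.542 in their sum, were lower in the same libraries, and their part was not tested.

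**Figure D4:**
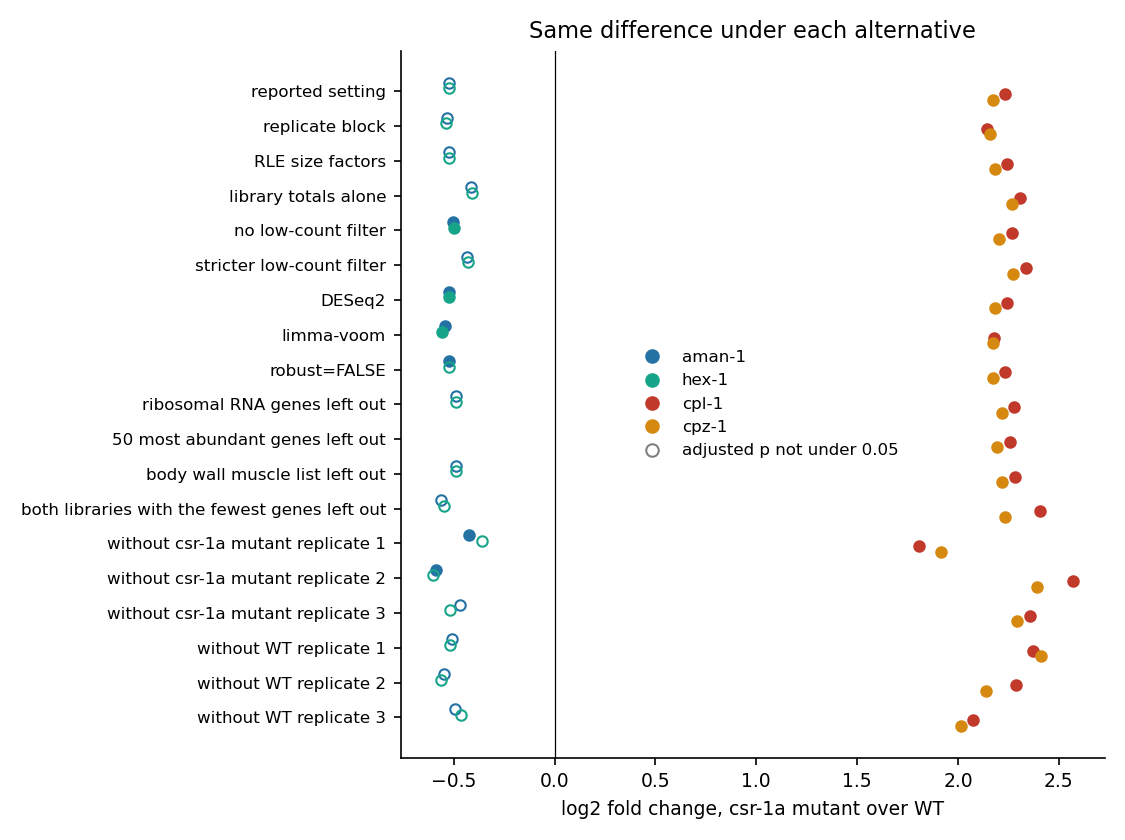
Log2 fold change, csr-1a mutant over WT, of aman-1, hex-1, cpl-1 and cpz-1 under the reported setting and each alternative, with filled points where the adjusted p was under 0.05. The points of cpl-1 and cpz-1 are filled throughout and lie between 1.81 and 2.57, and those of aman-1 and hex-1 lie between -0.60 and -0.36 and are filled in 6 and 3 alternatives.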

How the data were processed

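RNA was sequenced from 5000 sorted cells per library, in 3 csr-1a mutant and 3 WT libraries. The authors deposited 1 table of raw read counts for each gene. The submitters' processing notes name DESeq2, featureCounts, STAR, fastp 0.20.1 and Subread 2.0.0, in no order and with no role. Build, annotation and strand setting behind the counts are not stated in these sources, so reads of overlapping genes on opposite strands, and of near-identical genes, may have been mixed or lost. Symbols came from a WormBase identifier table, and coordinates (1-based) and exon lengths from the WBcel235 annotation (Ensembl release 115), which held 46919 of the 46932 genes and describes the genes, not the counted intervals.

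The test was that of edgeR 4.0.16 (R 4.3.3) on the counts, with filterByExpr by group (minimum count 10, minimum total 15), trimmed mean of M values, glmQLFit with robust=TRUE and glmQLFTest on group alone, fitted over all genes. Intervals (95%) come from the fold change, its standard error (the fold change over the square root of F) and the test's degrees of freedom. An upper limit for a count of 0 is 3 counts and covers counting error only. On counts simulated from these libraries, for 11968 genes in the comparison of mutant with WT, the test found 45 of the 100 genes given a 2-fold change and 93 of the 100 given a 4-fold change, and 10 of 11768 unchanged genes were called. The changed genes were drawn from those at 5 CPM or more. Libraries of a group differed by more than sampling noise (chi-square per degree of freedom at least 6.73), so none was taken for a copy of another.

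The members, the gene lists and the alternatives were chosen with earlier results of these data known. Named are the 10 members, csr-1, pnc-1 and pcs-1, all coelomocyte markers, the most abundant gene of each other marker list and, from each other lysosomal list, up to 3 called genes, lowest adjusted p first, or the most abundant gene where none was called. Also named are the 5 genes most like the members' mean profile among those of at least 5 CPM. Genes outside this rule (other markers checked for the label or found at 0, and genes marked as named after their values were seen) were named after their values were seen. Of the listed names, asp-10 matched no gene. The fit was repeated with the replicate number as a block, with RLE size factors or library totals alone for scaling, without a filter or with one at 5 CPM in 3 libraries, with robust=FALSE, with limma-voom (limma 3.58.1) and DESeq2 1.42.0, and leaving out ribosomal RNA, the 50 most abundant genes or the muscle markers, or leaving out each library or both with the fewest genes.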

Additional observations from a re-analysis of the deposited data

How the results depend on the processing

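The 2 hydrolases called higher, cpl-1 and cpz-1, were called in all 18 alternatives. The number called lower was 0 as reported, 2 without a low-count filter, 2 with DESeq2, 2 with limma-voom and 1 with robust=FALSE, and 0 to 1 when single libraries were left out. Genes called lower in the whole table numbered 185 as reported, 89 with library totals alone, 321 without a low-count filter, 361 with DESeq2, 56 without both libraries of fewest genes and 39 to 151 without single libraries. Genes called higher numbered 484, with 727 without a low-count filter and 327 to 546 without single libraries. With library totals alone 86.6% of called genes were higher, against 72.3% as reported. This share was 90.6% without WT replicate 1, 88.9% without WT replicate 3 and 89.4% without both libraries of fewest genes. It was lower with limma-voom (61.4%) and DESeq2 (66.0%). The signs of asp-1, asp-3, cpr-6, nuc-1 and asah-1 changed between alternatives, with no call in any. So did the sign of the median log2 fold change of the 10 genes, -0.09 as reported. It ran from -0.33 without mutant replicate 3 to 0.098 without mutant replicate 2. With the 50 most abundant genes left out, aman-1 and hex-1 gave no value, and with the stricter filter nuc-1 and asah-1 gave none. With the replicate number as a block, 428 genes were higher and 129 lower, and the same 2 hydrolases were called, while the coelomocyte marker ceh-34 was not (adjusted p = 0.0614). The numbers do not pair the libraries: deviations of same-numbered libraries from their group means correlated across genes at 0.037, -0.0201 and -0.068, and not every library correlated best with its own number. The cause of these shifts was not tested. At under 100 counts per library, counting error alone was 0.15 for nuc-1 and 0.17 for asah-1 on the log2 scale, below the standard errors of 0.47 and 1.08, so that the spread between libraries was larger than what depth sets.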

Other observations

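Other enzymes of lipid breakdown stood near the threshold. The acid sphingomyelinase gene asm-1 averaged 5.64 CPM in the mutant and 1.31 CPM in WT (log2 fold change 2.12, edgeR adjusted p = 0.0509). Its mutant libraries stood at 10.6, 2.57 and 3.77 CPM, and without mutant replicate 1 the log2 fold change was 1.29 (adjusted p = 0.349). The prosaposin-like gene spp-10 averaged 23.2 CPM in the mutant and 13.8 CPM in WT (log2 fold change 0.75, adjusted p = 0.0706). Both were named after their values were seen. In the list of 8 tested lipid-degrading enzymes DESeq2 called 3 higher, limma-voom 0 and edgeR 1. Of all genes tested these tools called 5.86%, 2.93% and 4.04% higher.

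The mean of the members' centred log2 levels over the 6 libraries was followed most closely, among 4935 genes, by rpl-7A, dot-1.1, F55F8.3, uba-2 and rad-50, with Pearson r of 0.984, 0.982, 0.978, 0.976 and 0.965. The mean rests largely on asah-1, whose centred value was -3.98 in mutant replicate 2, where it had no count. None of these 5 genes was called by edgeR, with log2 fold changes of 0.11 to 0.24. The remaining marker lists gave 0 calls with edgeR. Of 8 neuronal markers 1 was higher and 3 lower at an unadjusted p under 0.05, and of 6 tested germline and sperm markers 0 were higher and 1 lower, with 0 calls by DESeq2 or limma-voom. Of all genes tested, 9.39% were higher and 7.47% lower at an unadjusted p under 0.05. The most abundant of these markers, egl-3 (a proprotein convertase), averaged 126 CPM in the mutant and 194 CPM in WT (adjusted p = 0.13), and glh-1 (a germ granule helicase) 34.5 CPM in the mutant and 27.5 CPM in WT (adjusted p = 0.762).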
